A study of Mus musculus with 8 samples.

Results

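The genes described here are those of respiratory complex I, taken as every gene on the array whose single annotated symbol starts with Nduf. There were 43 such genes among 19938 genes with a single-symbol probe, and all 43 had a mean above the level filter, so that each is among the 11963 genes tested. They were 34 subunits of complex I, 7 assembly factors named Ndufaf, and Ndufa4 and Ndufa4l2, which carry the family name but are counted apart. Where a gene had several probes, the brightest on average stood for it. Probes that the annotation assigns to several symbols, 3 of them with an Nduf symbol, were not used.

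The samples were 4 hepatocellular carcinomas and 4 pieces of adjacent liver, a tumor and its neighbouring tissue from each of the male C57BL/6J mice M24, M48, M50 and M60. Every mouse had been injected with an AAV (adeno-associated virus) vector at 2 to 3 months of age and was necropsied 18 months later, so the adjacent liver had received the vector too, and no uninjected liver was compared. The labels do not say what the vector carried. Each sample gave 1 array of log2 expression values, and the number of arrays limits the precision.

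Complex I is the entry point of the mitochondrial respiratory chain. Its matrix arm takes electrons from NADH through a flavin and a row of iron-sulfur clusters to ubiquinone, and its membrane arm pumps protons. The membrane arm is built around subunits encoded in mitochondrial DNA, while the Nduf genes in the nucleus encode the catalytic core of the matrix arm and the accessory subunits that surround both arms. Hepatocytes are rich in mitochondria and use the chain to oxidise fatty acids and amino acids. Assembly factors help the modules join and are not part of the finished enzyme.

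Complex I genes were lower in the tumors, by modest amounts. Of the 34 subunits 17 fell and 0 rose at a limma adjusted p under 0.05, against 15.7% of all tested genes that fell and 16.3% that rose. At an unadjusted p under 0.05 by limma, 19 were lower and 0 higher. The share of all tested genes at this unadjusted threshold was not counted, so such counts, here and below, have no share beside them. The point estimate was below 0 for all 34 subunits, with a median difference (tumor minus adjacent, log2 scale) of -0.297, while the median over all tested genes was 0.001. In 24 of the 34 the tumor was lower in all 4 mice, which held for 25.3% of all tested genes, and in 13 all 4 tumors lay below all 4 adjacent samples, which held for 15.6% of all tested genes. Differences of the 17 genes that fell ran from -0.64 for Ndufb8 to -0.29 for Ndufs8. The count of 17 was 8 when M60 was left out and 11 when M50 was left out. Tumor and liver pieces are mixtures of cells, so fewer mitochondria-rich cells and less RNA per cell cannot be told apart.

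**Figure D1:**
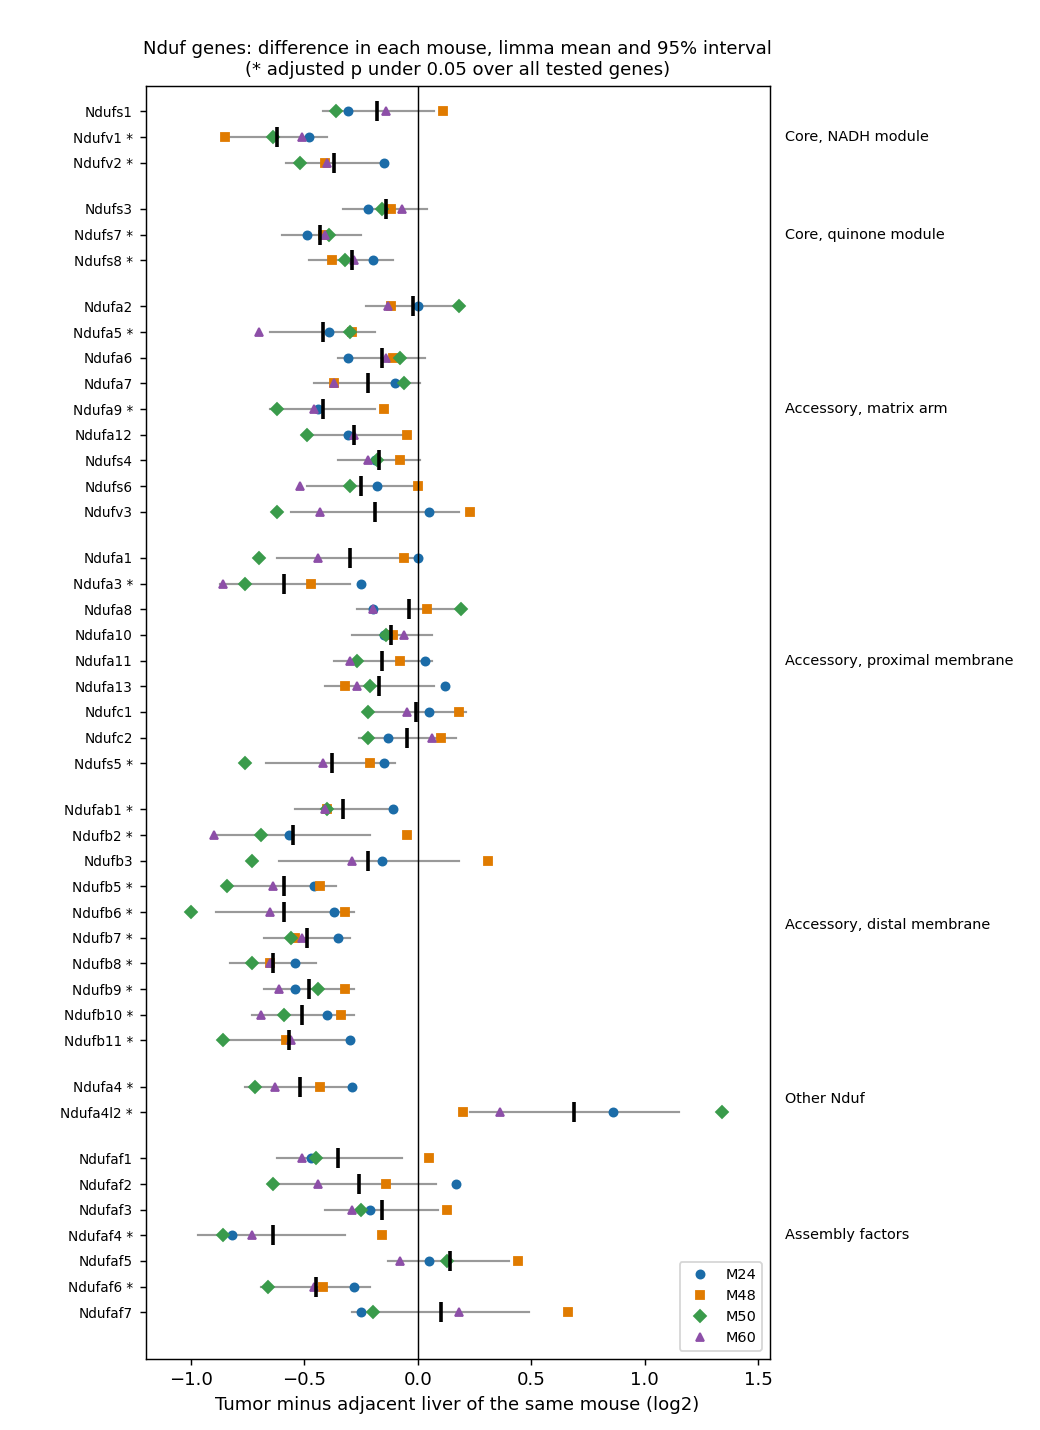
Tumor minus adjacent difference of each of the 43 Nduf genes on the log2 scale, by place in the complex. Symbols are the 4 mice, the black tick is the limma mean and the grey line its 95% interval; 9 of the 10 distal membrane arm subunits carry the star of an adjusted p under 0.05, and Ndufa4l2 is the only gene with a star right of 0.

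The count of falls differed by place in the enzyme. Subunits were placed from general knowledge of its structure, and some near the junctions could be placed otherwise. So could Ndufab1, the acyl carrier protein, which was counted with the distal membrane arm only. The accessory subunits of the distal membrane arm, nearly all named Ndufb, fell in 9 of 10 cases with a median of -0.53. The core subunits of the matrix arm fell in 4 of 6 cases with a median of -0.332. Accessory subunits of the matrix arm fell in 2 of 9 cases with a median of -0.223, and those of the proximal membrane arm in 2 of 9 cases with a median of -0.157. These shares stand beside the 15.7% of all tested genes that fell. With 1 mouse left out, 6 to 8 distal subunits fell. The core count was 2 without M48, M50 or M60. The matrix accessory count was 0 without M24 or M60 and 1 without M50, and the proximal count was 0 without M60 and 1 without any other mouse. In each mouse the distal arm had a lower median than the proximal arm: M24 had -0.387 against -0.129, M48 -0.37 against -0.082, M50 -0.712 against -0.221 and M60 -0.623 against -0.267. The difference between the arms was not tested.

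Stretches of 5 promoters are shown because the nuclear transcription factors NRF1, GABPA, YY1 and ESRRA are known for acting at promoters of respiratory genes. Windows of 300 bases, from 250 before the transcription start to 50 after it, were found by gene identifier for 38 of the 43 genes (RefSeq, build GRCm38.p6). The letters searched on both strands were GCGCA, any base and GCGC for NRF1, CCGGAAG for GABPA, AAGATGGCG for YY1 and TCAAGGTCA for ESRRA, and matches are in capitals in the sequences, which run 5′ to 3′ on the gene's own strand. The GABPA letters end and the YY1 letters begin with AAG, and the YY1 letters end and the NRF1 letters begin with GCG, so matches to both members of these pairs could overlap. Ndufb8, the subunit with the largest fall, had no match. Ndufb7 of the same arm has a GABPA match, the core gene Ndufs7 a YY1 match, the assembly factor Ndufaf4 an NRF1 match that reads on both strands, and Ndufc1, whose level differed little, a YY1 match.
Ndufb8, chr19:44555393-44555692, minus strand: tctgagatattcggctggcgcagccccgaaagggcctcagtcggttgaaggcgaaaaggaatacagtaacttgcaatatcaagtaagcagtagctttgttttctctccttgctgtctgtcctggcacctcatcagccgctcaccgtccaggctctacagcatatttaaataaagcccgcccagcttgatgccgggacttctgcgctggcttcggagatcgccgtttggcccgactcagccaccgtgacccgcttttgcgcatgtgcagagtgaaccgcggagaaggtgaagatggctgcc
Ndufb7, chr8:83566508-83566807, plus strand: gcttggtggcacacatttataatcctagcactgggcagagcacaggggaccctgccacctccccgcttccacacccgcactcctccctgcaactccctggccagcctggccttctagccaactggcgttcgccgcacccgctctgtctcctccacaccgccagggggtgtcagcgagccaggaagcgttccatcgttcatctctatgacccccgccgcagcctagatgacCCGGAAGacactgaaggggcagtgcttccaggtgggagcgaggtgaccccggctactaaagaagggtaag
Ndufs7, chr10:80249199-80249498, plus strand: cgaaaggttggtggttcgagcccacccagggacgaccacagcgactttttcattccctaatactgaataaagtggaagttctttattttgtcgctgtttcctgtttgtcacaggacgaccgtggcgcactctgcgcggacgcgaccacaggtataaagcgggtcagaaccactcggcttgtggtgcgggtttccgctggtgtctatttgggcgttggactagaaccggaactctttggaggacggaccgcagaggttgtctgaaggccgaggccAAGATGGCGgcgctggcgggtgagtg
Ndufaf4, chr4:24897833-24898132, plus strand: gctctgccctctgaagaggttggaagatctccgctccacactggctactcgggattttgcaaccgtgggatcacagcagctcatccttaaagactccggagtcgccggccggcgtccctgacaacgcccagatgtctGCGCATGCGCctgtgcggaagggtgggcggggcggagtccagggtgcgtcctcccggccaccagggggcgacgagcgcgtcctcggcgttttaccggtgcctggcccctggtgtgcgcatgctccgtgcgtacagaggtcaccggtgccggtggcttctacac
Ndufc1, chr3:51408906-51409205, minus strand: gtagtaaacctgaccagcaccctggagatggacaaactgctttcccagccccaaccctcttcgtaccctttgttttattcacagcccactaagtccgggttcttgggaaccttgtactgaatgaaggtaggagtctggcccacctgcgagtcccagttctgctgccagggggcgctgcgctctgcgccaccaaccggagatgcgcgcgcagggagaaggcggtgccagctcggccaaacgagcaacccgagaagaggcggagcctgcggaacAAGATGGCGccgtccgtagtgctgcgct

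Shares are of genes with a window, and a gene was counted where any of its windows held the letters. The NRF1 letters were present in 6 of 31 subunit genes, or 19.4%, against 5.19% of all 27025 genes. The YY1 letters were in 5 of 31, or 16.1%, against 1.64% of all genes, and the GABPA letters in 4 of 31, or 12.9%, against 9.93%. The ESRRA letters were in 0 of 31 subunit genes and in 0.466% of all genes. All 5 YY1 matches in subunit windows lay just after the start, with their first base at 23 in Ndufc1, 25 in Ndufs7, 30 in Ndufa9, 34 in Ndufs6 and 36 in Ndufs4. Among subunits that fell, 2 of 16 genes held the NRF1 letters, 2 the YY1 letters and 3 the GABPA letters. Among those not called, 4 of 15 held the NRF1 letters, 3 the YY1 letters and 1 the GABPA letters. Of the 9 distal arm genes with a window, 0 held NRF1 letters, 0 held YY1 letters and 2 held GABPA letters. Over all genes the shares were 5.19%, 1.64% and 9.93%, so 0 of 9 tells little for NRF1 and YY1. Only exact matches were counted, and a match is a description of these letters and not a binding site.

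Ndufb8, a membrane subunit whose protein is widely used as a marker of assembled complex I, had log2 levels of 8.12, 7.73, 7.94 and 8.06 in the tumors of M24, M48, M50 and M60, against 8.66, 8.39, 8.68 and 8.71 in the adjacent liver of these mice. All 4 tumors lay below all 4 adjacent samples, and the difference was similar in the 4 mice, from -0.54 in M24 to -0.73 in M50. The mean difference was -0.64 (SE 0.079, n = 4 pairs, limma adjusted p = 0.00207), so the level fell by 36.0%. In the distal arm it was the gene with the smallest p.

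Ndufb5 read 9.21, 9.17, 9.06 and 9.15 in the tumors of M24, M48, M50 and M60, against 9.68, 9.60, 9.90 and 9.79 in adjacent liver. Ndufb6 read 9.48, 9.45, 9.17 and 9.39 in the tumors and 9.85, 9.77, 10.17 and 10.04 in adjacent liver. In both genes the groups did not overlap, and the lowest tumor was that of M50, whose adjacent liver was the highest. Ndufb5 fell by 0.59 on the log2 scale (SE 0.0962, limma adjusted p = 0.00523) and Ndufb6 by 0.59 (SE 0.128, limma adjusted p = 0.0148). The call of Ndufb6 was lost without M60 (limma adjusted p = 0.0615).

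Ndufb11, which is X-linked, had levels of 9.99, 9.78, 9.68 and 9.99 in the tumors of M24, M48, M50 and M60, against 10.29, 10.36, 10.54 and 10.55 in adjacent liver, and the groups were separate. It fell by 0.57 (SE 0.105, limma adjusted p = 0.00809). Ndufb2 stood at 6.56, 6.85, 6.58 and 6.42 in the tumors and at 7.12, 6.91, 7.27 and 7.32 in adjacent liver. The groups were just apart, because the tumor and the adjacent liver of M48 differed by only -0.05, whereas M60 gave -0.90. It fell by 0.55 (SE 0.145, limma adjusted p = 0.0287), and the call was lost without M24, M50 or M60 (limma adjusted p from 0.0923 to 0.109).

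Ndufb10, a subunit of the intermembrane space side, read 7.86, 7.41, 7.57 and 7.68 in the tumors of M24, M48, M50 and M60, and 8.26, 7.75, 8.16 and 8.37 in adjacent liver. The groups overlapped, since the tumor of M24 was above the adjacent liver of M48, yet each tumor was lower than its own neighbouring tissue. It fell by 0.51 (SE 0.0935, limma adjusted p = 0.00819). Ndufb7 and Ndufb9 fell by 0.49 and 0.48. Ndufab1, the mitochondrial acyl carrier protein that also serves lipoate synthesis, fell by 0.33, with the call lost without M48, M50 or M60 and with no replicate block (limma adjusted p from 0.0522 to 0.126). Ndufb3 was the distal arm gene that did not pass, at -0.22 (95% interval -0.61 to 0.18, limma adjusted p = 0.361), and in M48 its tumor was higher, at 0.31.

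**Figure D2:**
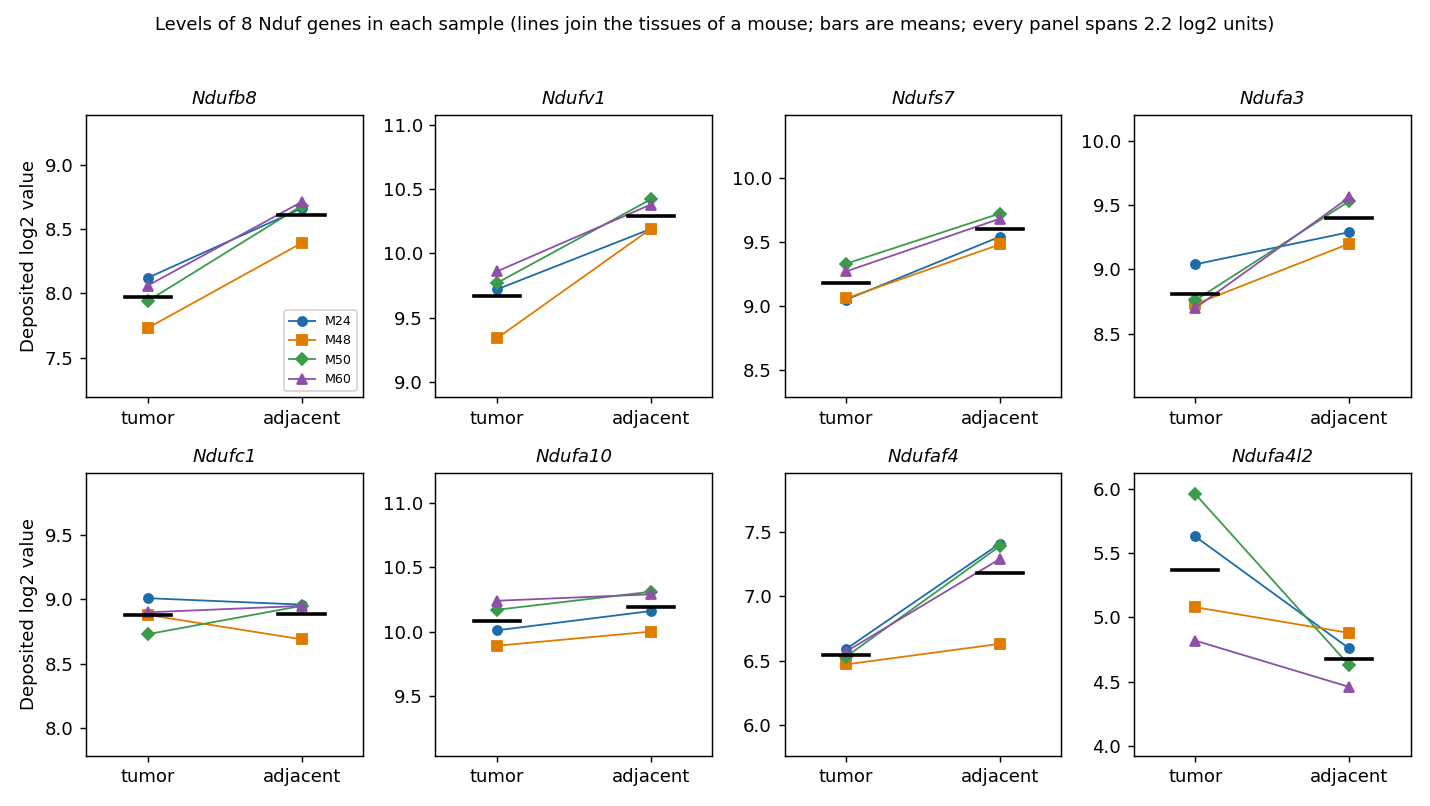
Deposited log2 values of 8 Nduf genes in each tumor (left) and adjacent liver (right); lines join the tissues of a mouse and black bars are group means. Ndufb8, Ndufv1, Ndufs7, Ndufa3 and Ndufaf4 show 4 tumors below 4 adjacent samples, Ndufc1 and Ndufa10 overlap, and Ndufa4l2 is higher in the tumor of each mouse.

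In the NADH-oxidising module, Ndufv1 holds the flavin and the NADH site. Its levels were 9.72, 9.34, 9.77 and 9.86 in the tumors of M24, M48, M50 and M60, against 10.19, 10.19, 10.42 and 10.38 in adjacent liver, with no overlap. The largest difference was that of M48, at -0.85. Ndufv1 fell by 0.62 (SE 0.092, limma adjusted p = 0.00382), so the level fell by 34.95%.

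Ndufv2, the iron-sulfur subunit beside the flavin, read 9.67, 9.37, 9.35 and 9.46 in the tumors of M24, M48, M50 and M60, against 9.82, 9.78, 9.87 and 9.86 in adjacent liver, again with no overlap. It fell by 0.37 (SE 0.0891, limma adjusted p = 0.0212), and the call was lost without M48, M50 or M60 (limma adjusted p from 0.0536 to 0.0912). Ndufs1, the largest iron-sulfur subunit, had 9.49, 9.40, 9.60 and 9.62 in the tumors and 9.80, 9.29, 9.96 and 9.76 in adjacent liver. The groups overlapped because the adjacent liver of M48 was lower than every tumor, and the difference of -0.18 did not pass (95% interval -0.42 to 0.07, limma adjusted p = 0.235).

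In the quinone-reducing module, Ndufs7, which carries the last iron-sulfur cluster before ubiquinone, had 9.05, 9.06, 9.33 and 9.27 in the tumors of M24, M48, M50 and M60, and 9.54, 9.48, 9.72 and 9.68 in adjacent liver. The groups did not overlap and the mice were close to each other, with differences from -0.49 to -0.39. Ndufs7 fell by 0.43 (SE 0.0738, limma adjusted p = 0.00654). Ndufs8, the ferredoxin-like subunit next to it, read 9.01, 8.62, 8.79 and 9.04 in the tumors and 9.21, 9.0, 9.10 and 9.32 in adjacent liver.

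Each tumor was below its own adjacent liver for Ndufs8, although the tumors of M24 and M60 were above the adjacent liver of M48. It fell by 0.29 (SE 0.077, limma adjusted p = 0.028), and the call was lost without any of the 4 mice, with no replicate block and after quantile normalization (limma adjusted p from 0.0538 to 0.106). Ndufs3, a clusterless core subunit, had 10.42, 10.29, 10.57 and 10.49 in the tumors and 10.64, 10.41, 10.73 and 10.56 in adjacent liver. Its groups overlapped, and the difference of -0.14 did not pass (95% interval -0.33 to 0.04, limma adjusted p = 0.195).

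Among the 9 accessory subunits of the matrix arm, Ndufa9, which sits where the arms join, fell by 0.42 (limma adjusted p = 0.0189), and Ndufa5 fell by 0.42 (limma adjusted p = 0.0188). In both genes the tumors lay below the adjacent samples. The call of Ndufa9 was lost without M24, M50 or M60 and that of Ndufa5 without M24 or M60 (limma adjusted p from 0.0626 to 0.082). The other 7 did not pass, with differences from -0.28 for Ndufa12 to -0.02 for Ndufa2. Ndufa12 passed without M48 (-0.36, limma adjusted p = 0.0359). With each array centred on its median, Ndufa12 (-0.38, limma adjusted p = 0.0349) and Ndufa7 (-0.32, limma adjusted p = 0.0499) passed. For Ndufs4, a subunit needed to keep the NADH module in place, the difference was -0.17 (95% interval -0.35 to 0.01).

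The proximal membrane arm had the smallest median difference of these groups. Ndufa3, a small membrane subunit, had 9.04, 8.73, 8.76 and 8.70 in the tumors of M24, M48, M50 and M60, against 9.29, 9.20, 9.53 and 9.56 in adjacent liver, and no overlap. It fell by 0.59 (SE 0.118, limma adjusted p = 0.0115, and 0.051 without M60). Ndufs5 fell by 0.38 (limma adjusted p = 0.0479), a call that 7 of the 11 alternatives did not give, among them each that left out a mouse (limma adjusted p from 0.0541 to 0.146 in the 7).

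For 4 proximal genes the estimate was close to 0: Ndufc1 at -0.01 (95% interval -0.23 to 0.21), Ndufa8 at -0.04 (-0.27 to 0.19), Ndufc2 at -0.05 (-0.26 to 0.17) and Ndufa10 at -0.12 (-0.29 to 0.06). These 4 are named because they had the estimates nearest 0 in their group. That none of their intervals reaches the distal median of -0.53 follows largely from this choice and is no test of the arms. In the same group the intervals of Ndufa3 (-0.87 to -0.30), Ndufs5 (-0.67 to -0.10) and Ndufa1 (-0.62 to 0.02) do reach that median. Those of Ndufa11 (-0.37 to 0.06) and Ndufa13 (-0.41 to 0.07) do not. Ndufa13, also known as the cell death regulator GRIM-19, stood at -0.17, Ndufa11 at -0.16 and the X-linked Ndufa1 at -0.30, and none of them passed (limma adjusted p from 0.135 to 0.238). Ndufa1 was level in M24, at 0.00, and stood at -0.70 in M50.

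The mice differed in how far the subunits were lower. For the 34 subunits M24 had a median of -0.212, M48 one of -0.182, M50 one of -0.421 and M60 one of -0.412, while that over all tested genes was between -0.019 and 0.007. The tumor was below its adjacent liver for 28 subunits in M24 and as many in M48, for 32 in M50 and for 33 in M60. The adjacent liver of M48 had the lowest value of the 4 adjacent samples for 30 of the 34 subunits, or 88.2%, against 34.2% of all tested genes. The tumor of M48 was the lowest of the 4 tumors for 17 of the 34 subunits, against 23.7% of all tested genes. Without M48 the median over the subunits was -0.359, and 14 fell.

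Among the 7 Ndufaf assembly factors, Ndufaf4, which acts early on the quinone module, had 6.59, 6.47, 6.53 and 6.57 in the tumors of M24, M48, M50 and M60, against 7.41, 6.63, 7.39 and 7.29 in adjacent liver. The tumors were nearly level, and the adjacent liver of M48 was close to them. Ndufaf4 fell by 0.64 (SE 0.136, limma adjusted p = 0.0133).

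Ndufaf6, related to enzymes that join isoprenoids, read 5.74, 5.40, 5.43 and 5.6 in the tumors of M24, M48, M50 and M60, and 6.01, 5.82, 6.09 and 6.06 in adjacent liver, with no overlap. It fell by 0.45 (SE 0.0999, limma adjusted p = 0.0154). The call of Ndufaf4 was lost without M24, M50 or M60 and that of Ndufaf6 without M50 or M60 (limma adjusted p from 0.0553 to 0.0604), so that 0 of the 7 fell without M50 or without M60 and 1 without M24. With all mice 2 of 7 fell, which is 28.6% against 15.7% of all tested genes, and 0 rose, with a median of -0.262. At an unadjusted p under 0.05, 3 were lower and 0 higher.

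Of the other assembly factors, Ndufaf1 was lower in 3 mice and level in M48 (0.05), with a mean of -0.35 (limma adjusted p = 0.0644). It passed without M48 (-0.48, limma adjusted p = 0.0124). It also passed with each array centred on its median (-0.44, limma adjusted p = 0.038) and after quantile normalization (-0.34, limma adjusted p = 0.0472). Ndufaf2, a relative of the subunit Ndufa12, stood at -0.26 and Ndufaf3, the partner of Ndufaf4, at -0.16. Ndufaf5 and Ndufaf7, which in human cells modify core subunits of the quinone module, had positive estimates of 0.14 and 0.10 that did not pass, with the highest value of both in M48 (0.44 and 0.66).

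Ndufa4 was first assigned to complex I and is now placed in complex IV. Its levels were 11.62, 11.48, 11.36 and 11.48 in the tumors of M24, M48, M50 and M60, against 11.91, 11.92, 12.08 and 12.11 in adjacent liver, with no overlap. It fell by 0.52 (SE 0.0998, limma adjusted p = 0.00953, and 0.0533 without M60).

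Its paralog Ndufa4l2, a gene known to be induced by hypoxia-inducible factor, went the other way. It read 5.63, 5.08, 5.96 and 4.82 in the tumors of M24, M48, M50 and M60, against 4.76, 4.88, 4.63 and 4.46 in adjacent liver. The tumor was higher in each mouse, by 0.86, 0.20, 1.34 and 0.36, but the groups overlapped, as the tumor of M60 was below the adjacent liver of M48. Ndufa4l2 rose by 0.69 (SE 0.193, limma adjusted p = 0.0352), a call lost without M24, M50 or M60 and with no replicate block (limma adjusted p from 0.0537 to 0.122). The adjacent mean of 4.68 was close to the filter level of 4.597, so the size of the rise is uncertain. It was the only Nduf gene that rose, against 16.3% of all tested genes.

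Subunits of the rest of the respiratory chain fell too. Of 37 subunits of complexes II to V, 15 fell, which is 40.5% against 15.7% of all tested genes, and 0 rose, with a median of -0.28 and medians between -0.358 (M50) and -0.197 (M24) in single mice. At an unadjusted p under 0.05 by limma, 27 were lower and 0 higher, a threshold to which the 15.7% does not apply. The count of 15 was 8 without M24, 6 without M50 and 5 without M60, and 28 with each array centred on its median. The number lower over all genes moved as well, from 1874 to 1317, 1170 and 1071 without these mice. With centring it was 2545, and the median of all genes shifted to -0.098. Cox4i1 of complex IV (-0.68), the ATP synthase subunit Atp5l (-0.63), the succinate dehydrogenase subunit Sdhb (-0.50) and Uqcrq of complex III (-0.43) were among those that fell. The distal arm of complex I, with its median of -0.53, was below the medians of complex II with its assembly factors (-0.262), complex III (-0.32), complex IV with Ndufa4 (-0.359) and ATP synthase (-0.236). This order was not tested. The subunit of complex I encoded in mitochondrial DNA that could be read, ND3, stood at -0.20 and did not pass (95% interval -0.43 to 0.03, limma adjusted p = 0.168).

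**Figure D3:**
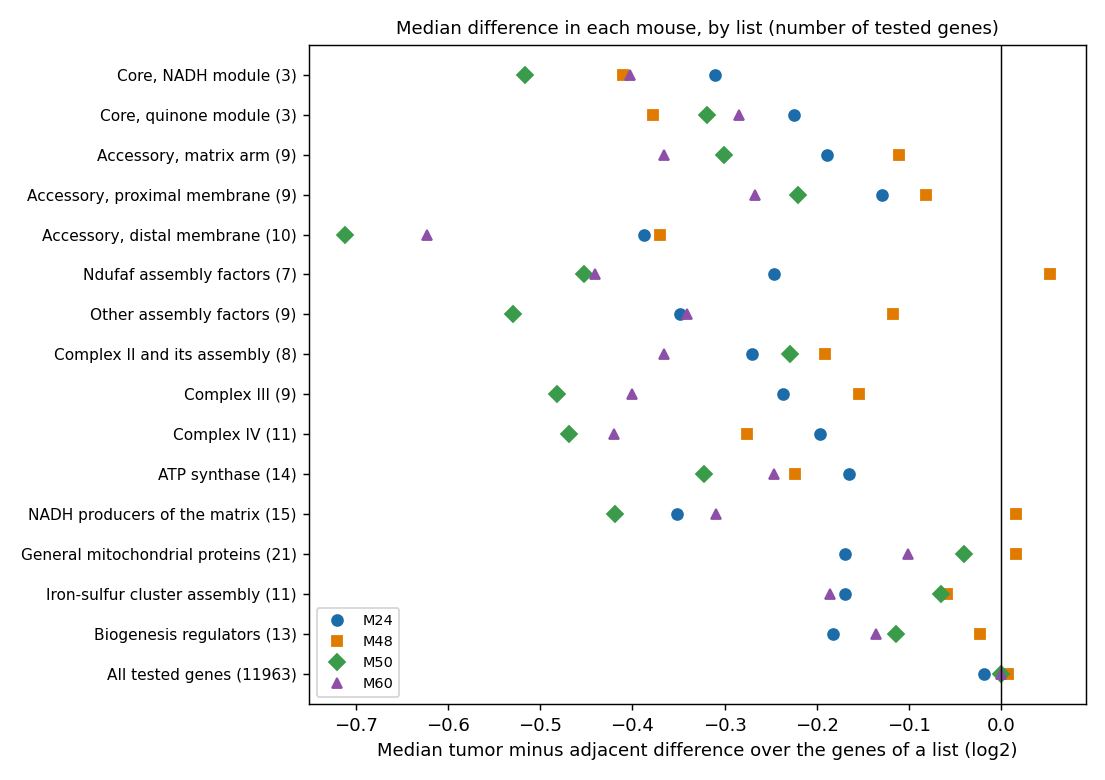
Median tumor minus adjacent difference over the tested genes of each list, on the log2 scale, with a symbol for each mouse. The distal membrane arm has medians from -0.712 in M50 to -0.37 in M48, and general mitochondrial proteins lie between -0.169 and 0.016.

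Assembly factors of complex I with other names were among the genes that fell. Of 9 tested, 4 fell and 0 rose (5 lower and 0 higher at an unadjusted p under 0.05 by limma), with a median of -0.329. Over all tested genes 15.7% fell and 16.3% rose. Ecsit, which in human cells belongs to the assembly complex of the membrane arm together with Ndufaf1, had 7.66, 7.52, 7.48 and 7.55 in the tumors of M24, M48, M50 and M60, against 8.42, 8.30, 8.51 and 8.52 in adjacent liver. The groups were far apart, and Ecsit fell by 0.89 (SE 0.0888, limma adjusted p = 0.00106), a larger difference than that of any subunit measured. Tmem126b (-0.52) and Tmem186 (-0.33) of the same assembly complex fell, as did Dmac2 (-0.52), while Acad9 of that complex stood at 0.05 (limma adjusted p = 0.821).

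Genes of pyruvate dehydrogenase and the citric acid cycle fell in 6 of 15 cases, against 15.7% of all tested genes, and rose in 0. Some of these enzymes make the NADH used by complex I, while fumarase, succinyl-CoA ligase and citrate synthase do not make it themselves. By limma, 7 were lower and 0 higher at an unadjusted p under 0.05, and the median was -0.232. Those that fell were led by fumarase (Fh1, -0.71), Suclg2 of succinyl-CoA ligase (-0.59) and Dlat of pyruvate dehydrogenase (-0.54). Citrate synthase (Cs, -0.07) and malate dehydrogenase (Mdh2, 0.02) did not pass. The count was 3 without M24 and 3 without M60. General mitochondrial proteins of import, cristae and chaperones had a median of -0.088. Of 21 tested, 6 fell, which is 28.6% against 15.7% of all tested genes, and 1 rose. The porin Vdac2 rose by 0.43, and the fusion gene Mfn2 fell by 0.76, the inner membrane ion exchanger Letm1 by 0.70 and the fusion gene Opa1 by 0.50. The counts of this list were 3 lower and 0 higher without M50 and without M60. Of 11 genes of iron-sulfur cluster assembly Nfu1 fell (-0.36) and the other 10 did not pass. The count of 1 was 0 without M24, M50 or M60 and 3 without M48, and 3 were lower and 0 higher at an unadjusted p under 0.05 by limma.

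**Figure D4:**
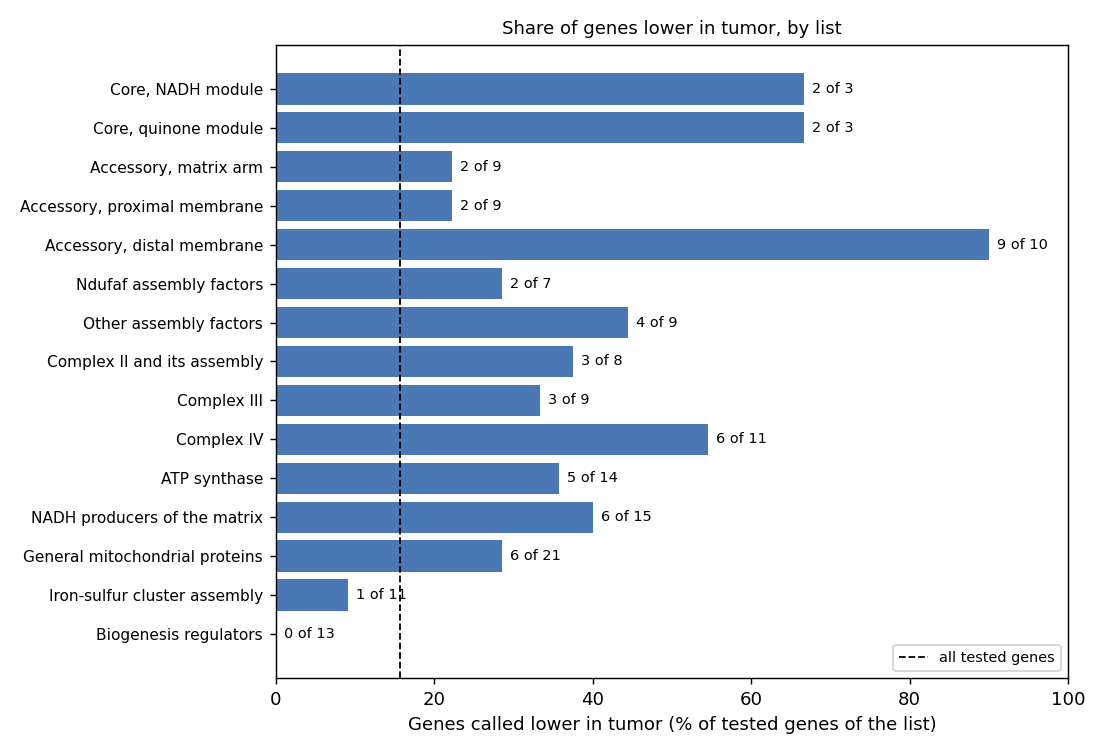
Percentage of the tested genes of each list that were called lower in tumor (limma adjusted p under 0.05), with the counts beside the bars and the share over all tested genes, 15.7%, as a dashed line. The distal membrane arm reaches 9 of 10, and the biogenesis regulators 0 of 13.

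Of 13 regulators of mitochondrial biogenesis 0 fell and 0 rose at a limma adjusted p under 0.05, where 15.7% of all tested genes fell and 16.3% rose. By limma, 2 were lower and 1 higher at an unadjusted p under 0.05. The estimate was below 0 for 10 of the 13, with a median of -0.171. The coactivator Ppargc1a had 5.85, 5.44, 4.60 and 5.74 in the tumors of M24, M48, M50 and M60, against 5.77, 6.45, 5.71 and 5.83 in adjacent liver. It was lower by 1.01 in M48 and by 1.11 in M50 and close to level in M24 (0.08) and M60 (-0.08), and the mean of -0.53 had a wide 95% interval, from -1.07 to 0.00 (limma adjusted p = 0.119). Of the factors whose letters were searched in the promoters, Yy1 stood at -0.26 (limma adjusted p = 0.0539), Gabpa at -0.18, Nrf1 at -0.17 and Esrra at -0.05. Tfam, the packaging and transcription factor of mitochondrial DNA, stood at -0.17 (95% interval -0.39 to 0.05). Some alternatives called regulators: 1 lower with no replicate block, without M50 or after quantile normalization, 2 lower with centred arrays, and 1 higher with the stricter filter. The others called 0.

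Markers of other cells moved with the same comparison, in which 16.3% of all tested genes rose and 15.7% fell. Of 8 tested hepatocyte markers 4 fell and 1 rose, and the mean log2 level over the list ran from 12.34 to 12.56 in tumors and from 12.79 to 12.91 in adjacent liver. Those that fell were Tat (-1.01), Tdo2 (-0.95), Cps1 (-0.84) and Hnf4a (-0.35), and Apoa1 rose by 0.32. Albumin was at 0.11 and passed in neither direction (limma adjusted p = 0.443), as did Ttr (-0.15) and Apob (-0.09). Stellate cell and fibroblast markers rose in 5 of 10 cases (mean level 7.96 to 8.40 in tumors, 6.74 to 7.76 in adjacent liver) and endothelial markers in 4 of 8 (7.70 to 8.13 in tumors, 7.11 to 7.41 in adjacent liver). Cholangiocyte markers rose in 2 of 4 tested (5.07 to 6.08 and 4.82 to 4.99), and macrophage markers rose in 1 and fell in 2 of 7 (7.80 to 9.30 and 7.41 to 9.56). Lymphocyte and neutrophil markers passed in 0 of 9 tested cases by limma. At an unadjusted p under 0.05, 3 of 4 T and NK cell markers and 1 of 3 B cell markers were higher and 1 of 2 neutrophil markers lower. Only 4 of 8 measured T and NK cell markers passed the level filter. Cd3g was below the filter level in adjacent liver (mean 4.56) and passed through its tumors (mean 5.76). Cd3g, Cd8a, Nkg7 and Jchain differed by 2.86, 2.11, 2.79 and 5.03 in M60, against -0.07, 0.14, -0.14 and 0.55 in M48, with M24 and M50 between. These counts therefore do not tell whether such cells were more frequent in the tumors. An array value is never 0, and 8 markers of these lists were below the filter level in all samples. The part of these cells in the complex I differences was not tested.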

How the data were processed

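Liver tumors and adjacent liver of 4 mice were profiled on 1 array each. The authors deposited a table of log2 values for 28874 probes and 8 samples. MAS5 is named in the submitters' processing notes without version or role. The normalization and the scan dates were not given in the sources used here. Array medians lay between 4.888 and 5.006, so the values were taken as normalized and were not rescaled.

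Of the probes, 21789 had 1 gene symbol in the platform annotation. The 40% of genes with the lowest mean (below 4.597) were left out. Tumor minus adjacent was fitted with limma 3.58.1 (lmFit, eBayes with trend) in R 4.3.3, with the mouse as a block, because both tissues came from the same animal, and with Benjamini-Hochberg adjustment over 11963 genes at a threshold of 0.05, two-sided. Errors are those of this fit over n = 4 pairs, with 3 residual and 3.643 prior degrees of freedom. Rose and fell mean an adjusted p under 0.05. The shares given over all tested genes hold for that threshold, and none was counted at an unadjusted p. Deviations from the group means correlated at 0.313 (M24), 0.421 (M48), 0.0986 (M50) and 0.111 (M60) within mice, and at -0.378 to 0.189 between mice.

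The members and lists were chosen with earlier results of these data known. Levels in all samples are given for core subunits, the 8 called subunits with the largest difference, Ndufa4, Ndufa4l2 and called Ndufaf genes, and up to 3 called genes of other lists are named; genes named beyond this rule, Ecsit's levels among them, were chosen after their values were seen. The alternatives were no block, each mouse left out, no filter or a filter of 60%, centring, quantile normalization, no trend and averaged probes.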

Additional observations from a re-analysis of the deposited data

Results flagged for a closer look

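In groups of 4 samples, a value was singled out where its gap to the nearest of the others took a share of the group's range above Dixon's 95% critical value. This held in 7 of 86 groups (43 genes in each tissue), and chance alone gives about 1 in 20 such groups. Ndufa8 was high in the tumor of M50, at 10.37, where the next tumor had 10.04, and Ndufs6 was high there too, at 9.58 against 9.29 to 9.34. The other 5 were low values in the adjacent liver of M48. Ndufc1 stood at 8.69 in this sample, where the other mice had 8.95 to 8.96 in adjacent liver, Ndufaf1 at 8.02 against 8.57 to 8.62, Ndufab1 at 8.97 against 9.18 to 9.20, Ndufaf4 at 6.63 against 7.29 to 7.41, and Ndufb8 at 8.39 against 8.66 to 8.71.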

How the results depend on the processing

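Of the 21 Nduf genes called, 8 kept their call under all 11 alternatives (Ndufv1, Ndufs7, Ndufb5, Ndufb7, Ndufb8, Ndufb9, Ndufb10 and Ndufb11), 13 lost it under at least 1, and 0 turned direction. With single mice left out, the number of complex I subunits that fell ranged from 8 to 14, that of the distal arm from 6 to 8, that of the Ndufaf genes from 0 to 3, that of complexes II to V from 5 to 13, and those over all genes from 1071 to 1720 lower and from 1238 to 1759 higher; fewer samples enter these fits. With no replicate block 14 subunits fell, against 17 with the mouse as a block. The stricter filter called 1 Ndufaf gene lower and tested 40 of the 43 genes. Centring each array on its median moved the median of all genes to -0.098 and the calls over all genes to 2545 lower and 1536 higher, against 1874 and 1945, with 19 complex I subunits lower (median -0.395) and 28 subunits of complexes II to V lower (median -0.379). Quantile normalization moved the median of all genes to -0.042, that of complex I subunits to -0.262 and that of complexes II to V to -0.187. Detection over background could not be read from these values, and 4 pairs limit the precision.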

Other observations

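A further single-symbol probe was present for 5 of the subunits and was not used in the comparison. For Ndufb11 it gave a mean tumor minus adjacent difference of -0.82 ± 0.235 (SD, n = 4 pairs), against -0.57 ± 0.227 for the probe used. For Ndufab1 the values were -0.35 and -0.33, for Ndufs3 -0.15 and -0.14, for Ndufa11 -0.24 and -0.16, and for Ndufc1 -0.09 and -0.01. The pairs of probes gave the same sign in each of the 5 genes.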
